A study of Drosophila melanogaster with 4 samples.

Results

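Autosomal H3K4me3 peaks of S2-DRSC cells that lay within 500 bp of another peak were described here. The line is a Drosophila melanogaster culture of male origin, established from embryos of a late stage. Per the labels, 2 libraries came from immunoprecipitation with a rabbit polyclonal antibody against H3K4me3 and 2 were input DNA, all from cells crosslinked with 1.8% formaldehyde for 15 min, and no treatment or genetic change is labelled in either group. The authors' single list of 11572 peaks was analysed, which gives each peak a start, an end and a score on a scale whose kind is not stated. It holds no value per library, so read depth and the spread between replicates are unknown. Members were the peaks of 2L, 2R, 3L and 3R that were at most 2000 bp wide and had a gap below 500 bp to the next peak on at least 1 side. Autosomal here means these 4 arms only, so chromosome 4, also an autosome, is left out. This gave 2658 members of 5932 autosomal peaks (44.8%), or 23.0% of the whole list. Position and width chose them, so gaps, widths and the scores from the same peak calls are descriptions without a test.

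H3K4me3 is the trimethylated form of lysine 4 of histone H3, placed by enzymes of the COMPASS type, of which Set1 makes most of the trimethyl mark in Drosophila. It sits on the nucleosomes around the starts of active genes, above all just downstream of the start. The start itself is often depleted of nucleosomes, and a pair of genes that run in opposite directions can share such a depleted stretch. A peak caller can therefore return neighbouring peaks around 1 start, from neighbouring starts, or from 1 marked stretch that it breaks up. The list carries no strand, and no gene annotation of its build was used here, so which of these applies to a given pair was not tested and no gene is named.

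Close neighbours were common among narrow autosomal peaks, here those of at most 2000 bp. Members were 2658 of 5102 such peaks, or 52.1% (50.7 to 53.5). Bounds of shares are 95% Clopper-Pearson intervals and bounds of medians are 95% exact binomial intervals from ranked values. Both cover counting error only and take peaks as independent, which neighbours are not, so they are too narrow. A close neighbour lay on the left side only, toward lower coordinates, for 1116 members and on the right side only for 1114. It lay on both sides for 428 members, 16.1% (14.7 to 17.6). These peaks with a neighbour on either side were narrower, at 859.5 bp in the median where members close on 1 side had 1002 bp, and their median score was 53.2 against 76.6. The width limit left out 458 peaks over 2000 bp that also had a close neighbour, 55.2% of the 830 wide autosomal peaks.

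The gaps were not spread evenly up to the limit. There were 1766 gaps below 500 bp beside at least 1 member, of which 1320 lay between members and 446 between a member and a wide peak. The median gap was 240 bp (232 to 251), with quartiles of 146 and 351 bp. The smallest gap was 51 bp, which is also the smallest gap anywhere in the list and so a floor of the peak calls. Directly above that floor, 301 gaps fell at 50 to 99 bp. The count dropped to 146 at 100 to 149 bp, rose to 230 at 150 to 199 bp and 239 at 200 to 249 bp, and then declined to 120 at 450 to 499 bp. Beyond the limit counts went on falling, though not in every step, with 88 autosomal gaps at 500 to 549 bp and 36 at 950 to 999 bp. The distribution thus had 2 high regions, 1 beside the floor and 1 around 150 to 250 bp.

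Among pairs, the gaps beside the floor came mostly from those with a weak partner. Pairs here are 2 adjacent members with a gap below 500 bp, and they were grouped by the score of the weaker partner at 25 and 100, limits chosen after seeing the data. Of the 301 gaps at 50 to 99 bp, 215 lay within such pairs and 86 beside a wide peak, and 143 of the 215 had a weaker score below 25. These were 66.5% (59.8 to 72.8), where the share over all pairs was 41.3%. In the 545 pairs whose weaker partner scored below 25, 26.6% of the gaps (22.9 to 30.5) were at most 100 bp, and the weaker partners had a median score of 12.7. That share was 8.76% (6.41 to 11.6) in the 491 pairs with a weaker score of 25 to 100 and 10.6% (7.24 to 14.7) in the 284 pairs in which each partner reached 100. The pairs with 2 strong partners had a median gap of 258 bp, with quartiles of 175.75 and 346.5 bp. It was 203 bp for weaker scores below 25 and 290 bp for those of 25 to 100, so the gap did not rise steadily with score. Counts of strong pairs were highest at 200 to 249 bp (44 pairs), little above the 41 at 150 to 199 bp, and fell to 16 at 450 to 499 bp.

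**Figure D1:**
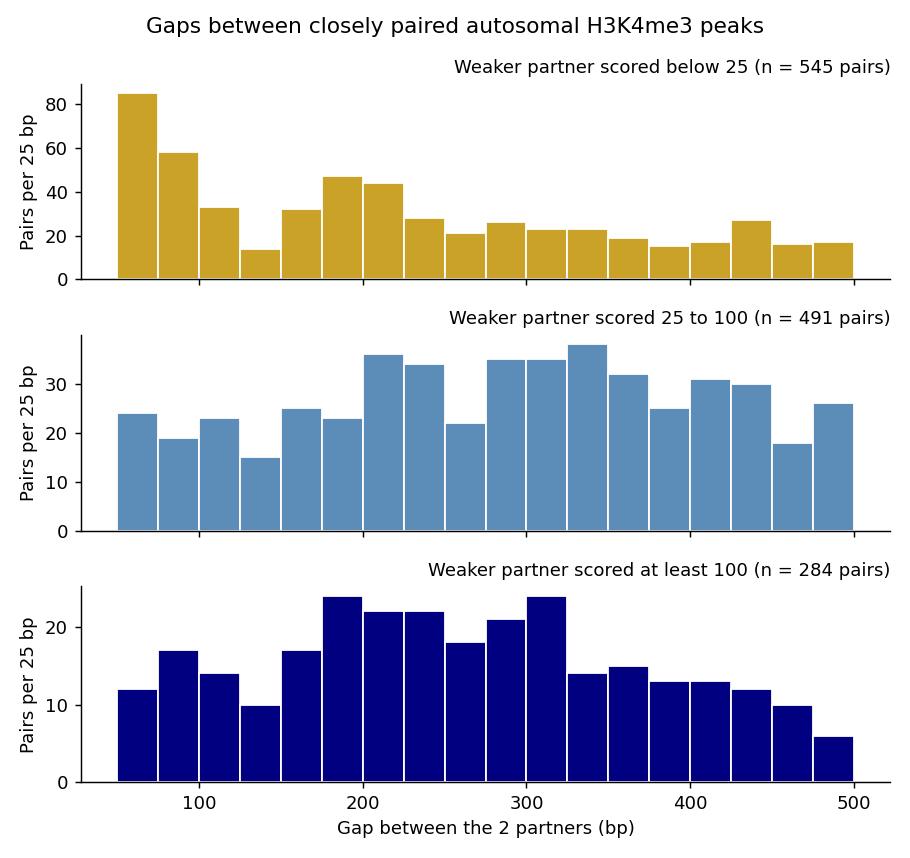
Number of pairs (vertical axis, per 25 bp) against the gap between the partners (horizontal axis, bp), in 3 panels by the score of the weaker partner. The bars are tallest next to the 51 bp floor in the panel for weaker scores below 25, while in the panel for scores of at least 100 they are tallest between about 175 and 325 bp.

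The layout of the pairs differed between these groups as well. Pairs with a weaker score below 25 had a median distance between peak centres of 854.5 bp and spanned a median of 1488 bp. Their narrower partner had a median width of 313 bp and their wider partner one of 877 bp. Pairs with 2 strong partners had a median centre distance of 1643 bp (quartiles 1483.5 and 1808.75 bp), a median span of 3014 bp and median widths of 1222 and 1524 bp. Scores and widths rise together in this list, and a centre distance holds the gap and a part of each width, so the longer centre distances of strong pairs in part restate their widths.

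Pairs that almost touched mostly held a weak peak. The gap was 51 bp in 7 pairs, of which 6 had a weaker score below 25, and 52 bp in 9 pairs, of which 8 did. These are few pairs, and over all 1320 pairs the weaker score was below 25 in 545, or 41.3%. The pair with the smallest gap on each arm is named here, and among equal gaps the pair with the highest sum of scores was taken, which favours strong peaks. On 2L it was 2L:2745067–2746993 and 2L:2747046–2748754, which were 52 bp apart and had scores of 205 and 189.5. On 2R it was 2R:3084552–3084951 and 2R:3085003–3085633, 51 bp apart, a weak pair in which each score was 12.7. On 3L a score of 176 at 3L:17028744–17029759 stood 51 bp from one of 8.41 at 3L:17029811–17030240. On 3R the scores were 133 and 69.5, at 3R:12897033–12898389 and 3R:12898441–12899343. All positions are in FlyBase release 5 and counted from 1.

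Partners were often alike in score, but the spread was wide. Over the 1320 pairs the higher score was a median of 1.62 times the lower (1.55 to 1.70), with quartiles of 1.23 and 3.34. The scores differed by less than 1.25 times in 354 pairs, 26.8% (24.4 to 29.3), and by less than 2 times in 61.1%. Among narrow autosomal neighbours at 500 bp or more, 22.4% (21.0 to 23.9) differed by less than 1.25 times, so such likeness was not particular to close partners. At the other end, 233 pairs, 17.7% (15.6 to 19.8), differed by at least 5 times, and 120 pairs by at least 10 times. The median stronger partner scored 102 and the median weaker partner 40.7. Across pairs, the left and right scores had a Spearman rho of 0.347 (n = 1320). Partners come from the same libraries and the same stretch of chromosome, pairs in runs share peaks, and this value describes the list only.

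**Figure D2:**
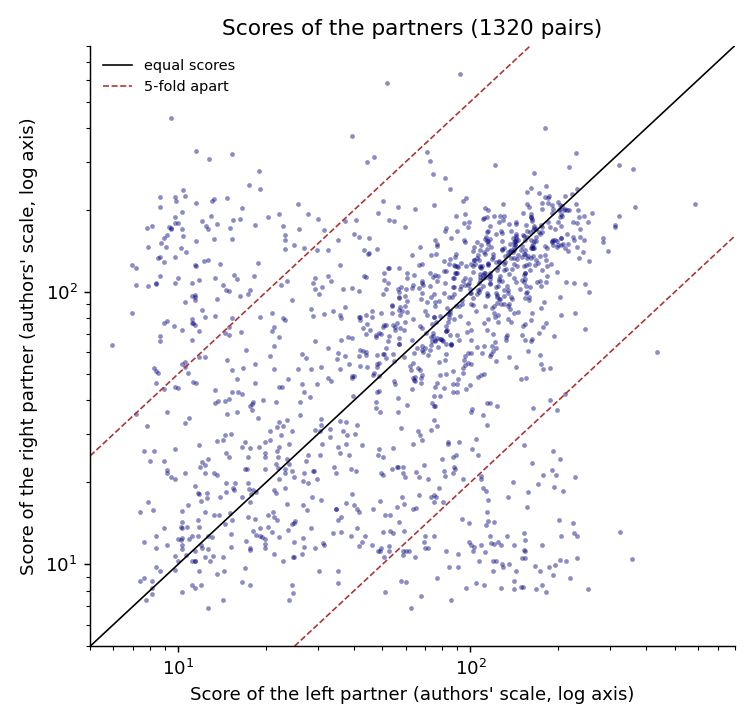
Score of the right partner against that of the left partner on the authors' scale, both on log axes, with 1 point per pair. Many points follow the line of equal scores at scores of 50 to 200, and 233 of the 1320 pairs lie at least 5 times apart, outside the dashed lines or on them.

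The pairs with 2 very strong partners are shown by the pair whose weaker partner scored highest on each arm. That choice favours equal scores, so their balance is a description only. On 3R these were 3R:5517271–5518633 and 3R:5518709–5520087, 75 bp apart, with scores of 321 and 292 and widths of 1363 and 1379 bp. On 3L, 3L:1638003–1639365 and 3L:1639689–1641037 had scores of 231 and 239 with a gap of 323 bp. Their widths, 1363 and 1349 bp, were within 1.01 times of each other. On 2R, 2R:8084653–8086376 and 2R:8086759–8088330 had scores of 222 and 228 with a gap of 382 bp. On 2L, 2L:8684787–8685977 and 2L:8686210–8687128 had scores of 233 and 199 with a gap of 232 bp. None of these 4 pairs differed by more than 1.17 times in score.

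The most unequal pairs are shown by the largest score ratio on each arm, a choice that sets a weak peak beside a strong one. Their weak peaks were 200 to 320 bp wide. The largest score ratio, 45.9, was on 3L, where 3L:15974690–15974891 (202 bp) scored 9.47 and 3L:15974987–15976044 (1058 bp) scored 435. On 2L a peak of 239 bp at 2L:22241524–22241762 scored 10.5 beside a score of 356 at 2L:22239918–22241358. On 2R a peak of 200 bp, the smallest width in the list, scored 8.13 at 2R:3675030–3675229 beside a score of 252 at 2R:3673495–3674819. On 3R a peak of 320 bp at 3R:12815706–12816025 scored 11.6 beside a score of 329 at 3R:12816477–12817874. The weak partner lay to the left of the strong one on 3L and 3R and to the right on 2L and 2R.

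Widths were balanced to a similar degree. The wider partner was a median of 1.49 times as wide as the narrower (1.45 to 1.53), with medians of 1203.5 and 665.5 bp. The ratio was below 1.25 in 425 pairs (32.2%) and at least 3 in 247 (18.7%). It was below 1.5 together with the score ratio in 429 pairs, 32.5% (30.0 to 35.1). The left and right widths had a rho of 0.237 (n = 1320). Left and right were even in the list as a whole. The left partner had the higher score in 647 of 1313 pairs without equal scores, 49.3% (46.5 to 52.0), and was the wider in 680 of 1316 pairs, 51.7% (48.9 to 54.4).

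The wider partner had the higher score in 976 of 1309 pairs without ties, 74.6% (72.1 to 76.9). How often it did so followed the imbalance in width. Where widths differed by less than 1.25 times the share was 56.1% (51.2 to 60.9), with a median score ratio of 1.33. It was 68.7% at width ratios of 1.25 to 1.5, 78.9% at 1.5 to 2 and 88.5% at 2 to 3. Where 1 partner was at least 3 times as wide, it had the higher score in 241 of 247 pairs, 97.6% (94.8 to 99.1), and the median score ratio was 8.57. In pairs in which each partner reached a score of 100, the wider had the higher score in 58.7%.

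Close partners were compared with narrow autosomal neighbours that lay farther apart. The 3106 neighbours at 500 bp or more had a median score ratio of 1.83 (1.78 to 1.91), above the 1.62 of the pairs, and a median width ratio of 1.50 (1.47 to 1.54), near the 1.49 of the pairs. Their left and right scores had a rho of 0.199, and 18.5% differed by at least 5 times. The share in which the wider peak had the higher score was 75.2% (73.6 to 76.7), near the 74.6% of the pairs. The likeness of scores was not greatest at the smallest gaps. At gaps of 51 to 99 bp the median score ratio was 1.96 (1.73 to 2.31) and rho 0.182, and at 200 to 299 bp the ratio was 1.51 (1.43 to 1.66) and rho 0.312. At 300 to 399 bp rho was 0.431. Beyond the limit the values changed little at first, with a ratio of 1.59 and a rho of 0.384 at 500 to 749 bp. From 1000 to below 2000 bp they were 1.81 and 0.181, and at 20000 bp or more 2.15 and 0.126.

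**Figure D3:**
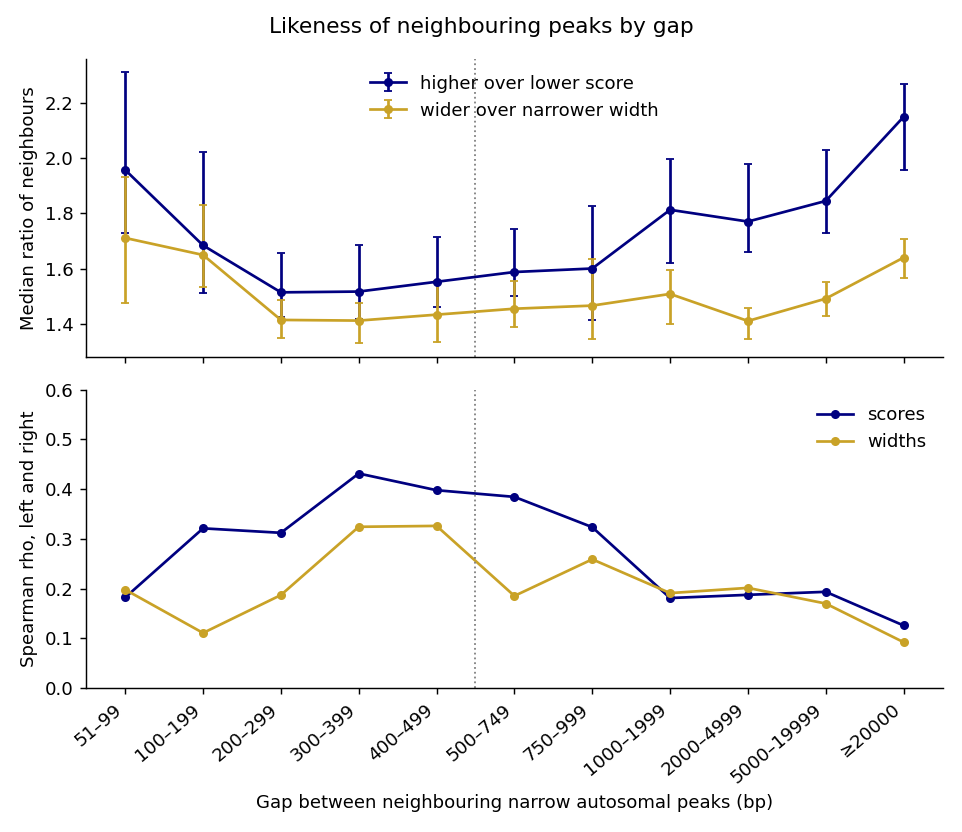
Upper panel, median ratio of scores and of widths between neighbouring narrow autosomal peaks, with 95% exact binomial intervals, by the gap between them (bp). Lower panel, Spearman rho of left and right scores and widths in the same gap classes; the dotted line marks the 500 bp limit. The score ratio is 1.96 at 51 to 99 bp, 1.51 at 200 to 299 bp and 2.15 at 20000 bp or more.

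At the limits of the rule, most values compared were similar on either side. The 93 pairs with gaps of 450 to 499 bp had a median score ratio of 1.71, and the 73 narrow neighbours at 500 to 549 bp one of 1.69. Median scores below and above the gap limit were 43.4 and 48.0 for the weaker peak, and 88.4 and 110 for the stronger, which differed more. The widest gap kept was 499 bp, between 3R:20454652–20455806 (score 76.6) and 3R:20456306–20457404 (score 32.2). The closest narrow neighbours left out were 500 bp apart, 2R:4050201–4050992 (score 63.7) and 2R:4051493–4052109 (score 47.9). Peaks with a close neighbour had a median score of 157 at widths of 1900 to 1998 bp (45 peaks, inside) and 152 at 2001 to 2100 bp (35 peaks, outside).

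Most members belonged to runs of 2. A run is a chain of autosomal peaks of any width joined by gaps below 500 bp, and 1266 runs held at least 1 member. Of these, 927 runs held 2 peaks, 73.2% (70.7 to 75.6), 230 held 3 (18.2%), 64 held 4, 27 held 5 and 18 held 6 or more. Runs of 2 held 1648 members and longer runs 1010. In 351 runs, 27.7%, at least 1 peak was over 2000 bp wide. With wide peaks taken as breaks, the longest stretch of members was 7 and 781 stretches held 2. Among the 915 runs without a wide peak, the median span from first start to last end was 2259 bp for 2 peaks, 3122.5 bp for 3 and 4850 bp for 4. Of these runs 622, or 68.0%, spanned more than 2000 bp, the limit that separates wide peaks from narrow ones. Peaks covered a median of 88.5% of the span in runs of 2 and 83.9% in runs of 4.

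Members of the longest runs had lower scores. The median was 79.7 in runs of 2 (75.4 to 84.0), 67.1 in runs of 3, 74.9 in runs of 4 and 45.4 in runs of 5 or more (31.2 to 58.1). Members were also narrower in the longest runs, with median widths of 1017 bp in runs of 2 (985 to 1057) and 707.5 bp in runs of 5 or more (599 to 877). Scores and widths rise together in this list, so the 2 differences were not told apart. All these medians leave out wide peaks, so they are not levels of whole runs. No wide peak was present in 721 of 927 runs of 2 and in 6 of 27 runs of 5. The ratio of the highest to the lowest score in a run was larger for 3 and 4 peaks than for 2. Such a ratio tends to rise with the number of peaks compared, so it does not show that longer runs are more uneven. In runs without a wide peak the highest score was a median of 1.54 times the lowest in runs of 2, 3.50 times in runs of 3, 8.21 times in runs of 4 and 7.79 times in the 6 runs of 5. Place within the run had no clear relation to score. In the 152 runs of 3 narrow peaks the middle peak had the highest score in 58 (38.2%, 30.4 to 46.4), the first in 48 and the last in 46. The middle peak was the lowest in 39 runs (25.7%, 18.9 to 33.4). Median scores were 58.4, 70.4 and 49.0 from first to last, with intervals that overlapped. In the 31 runs of 4 the medians were 102, 76.0, 76.6 and 88.4, with wide intervals.

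**Figure D4:**
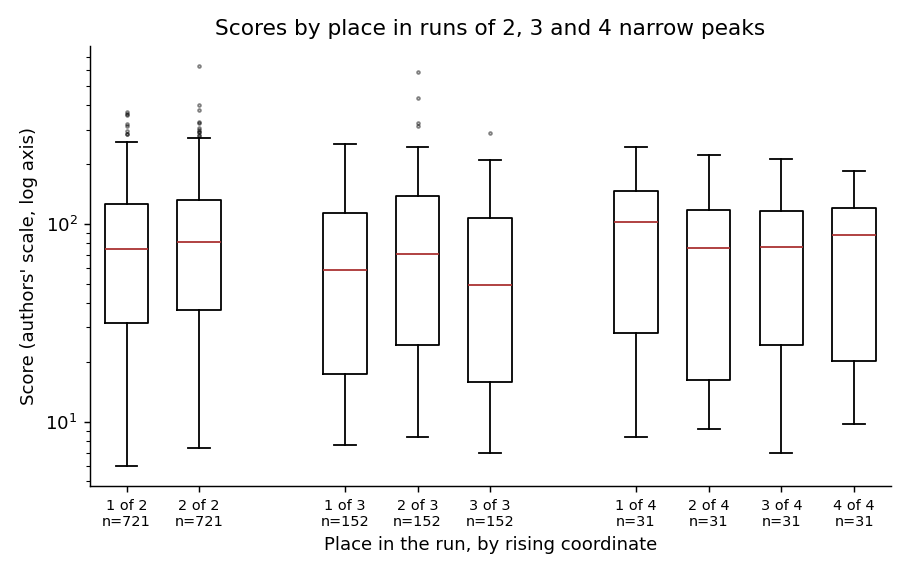
Scores on the authors' scale (log axis) by place in runs of 2, 3 and 4 narrow autosomal peaks, ordered by rising coordinate. Boxes show the median and quartiles, whiskers reach to the last peak within 1.5 times the box height and points lie beyond; n is the number of runs. The boxes of the places overlap widely, with medians of 58.4, 70.4 and 49.0 in runs of 3.

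The longest runs of the arms differed in make-up. The longest of all, 12 peaks at 2L:21450249–21480854, alternated 6 wide peaks with 6 members. The next peak lay 505 bp after its end, so the run stops there only by the 500 bp limit. The wide peaks were 4071 to 4765 bp wide and scored 213 to 236, and the members were 213 to 239 bp wide and scored 18.3 to 23.0. The starts of successive members in it were 5008 to 5061 bp apart, and whether the sequence there is repeated was not tested. The next longest run, 9 peaks at 2L:21416354–21440876, lay just before it, with 5 wide peaks and 4 members. Its members were less alike, with widths of 335 to 1235 bp, scores of 19.97 to 242 and starts 981 to 7805 bp apart. Successive wide peaks, however, had starts 4506 to 5328 bp apart in this run and 5035 to 5477 bp apart in the 12-peak run. Whether the sequence of the 9-peak run is repeated was not tested either. On 2R, the 8 peaks at 2R:6509986–6524604 had scores of 21.4 to 175, with the highest at the fourth peak, a member of 1360 bp. On 3R, the 8 peaks at 3R:7040817–7053550 fell into 5 peaks with scores of 127 to 168 followed by 3 with scores of 13.6, 21.3 and 74.2. On 3L, the 7 peaks at 3L:17724000–17731188 had 5 of 6 gaps below 80 bp, and their highest score, 157, was at the right end.

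Members that adjoined a wide peak were mostly the weaker side. Wide peaks scored higher in general, with a median of 179 over all 830 wide autosomal peaks against 74.8 over all members. Over the 446 such gaps, the median score was 88.7 for the member and 166 for the wide peak, and the member had the higher score in 90, 20.2% (16.6 to 24.2). The median ratio of wide to member score was 1.65 (1.43 to 1.85). In 134 of them, 30.0% (25.8 to 34.5), the wide peak scored at least 5 times as high. The median gap was 230.5 bp, close to the 242 bp between members, and 19.3% of the gaps were at most 100 bp (15.7 to 23.3), against 16.5% (14.6 to 18.6) between members.

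Members were set beside the 2444 narrow autosomal peaks without a close neighbour. Their median scores were 74.8 (71.0 to 78.4) and 66.6 (63.7 to 70.1), and their median widths 985 and 974.5 bp. With a gap limit of 250 bp in place of 500 bp the order of the medians turned around. They were 67.1 (60.3 to 73.6) for members and 71.4 (68.9 to 74.2) for the others, with overlapping intervals. The others then took in peaks that were members at 500 bp. Members were spread wider at both ends. Of the members 25.5% scored below 25 (23.9 to 27.2), against 21.2% (19.5 to 22.8) of the others. Scores of at least 100 were reached by 1021 members, 38.4% (36.6 to 40.3), and by 31.9% (30.1 to 33.8) of the others, where the share over all autosomal peaks, wide ones included, was 42.9%. By width, members made up 58.2% of the narrow autosomal peaks of up to 500 bp (55.2 to 61.1), 47.1% of those of 500 to 1000 bp, 51.1% at 1000 to 1500 bp and 56.3% at 1500 to 2000 bp.

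Within these width classes the difference in score changed direction. Among peaks of up to 500 bp the median score was 13.3 for members (12.7 to 14.2) and 15.0 for the others (14.3 to 16.2). In the wider classes it was higher in members. It was 55.8 (52.1 to 58.6) against 50.02 (47.7 to 52.7) at 500 to 1000 bp and 115 (112 to 118) against 105 (101 to 109) at 1000 to 1500 bp. At 1500 to 2000 bp it was 151 (145 to 157) against 141 (132 to 148). The intervals overlapped at 500 to 1000 bp and at 1500 to 2000 bp. The quartiles overlapped in every class.

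**Figure D5:**
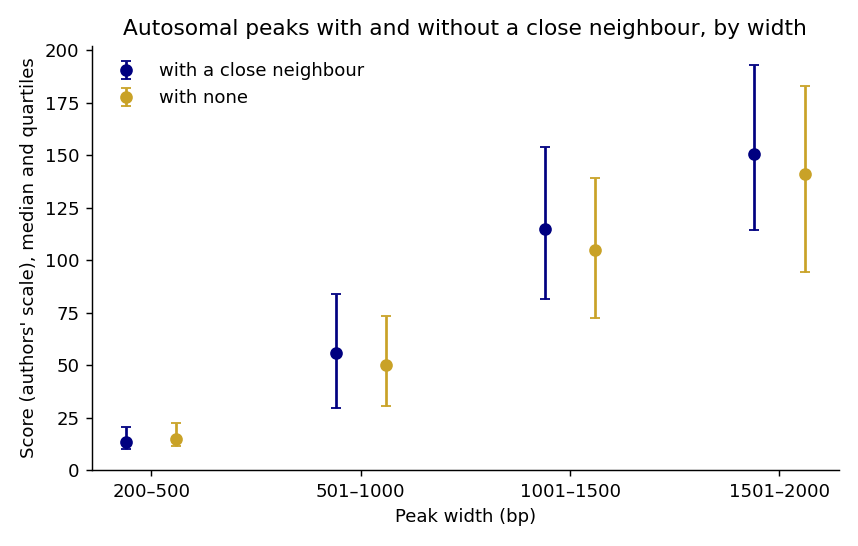
Score on the authors' scale (points, medians; bars, quartiles) of narrow autosomal peaks with and without a neighbour closer than 500 bp, by peak width (bp). Medians are 13.3 and 15.0 in the narrowest class and 115 and 105 at 1000 to 1500 bp, and the quartiles overlap in each class.

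The 4 arms gave similar pictures. Members were 54.4% of narrow peaks on 3R (51.8 to 57.0), 53.0% on 2L, 50.6% on 2R and 50.04% on 3L (47.2 to 52.9). The median gap between members was 230.5 bp on 3R, 237.5 bp on 2R, 254 bp on 3L and 257 bp on 2L. Median score ratios of partners ran from 1.54 on 3R (1.45 to 1.66) to 1.75 on 2R (1.53 to 2.04), with overlapping intervals. Runs of 2 made up 71.2% to 74.7% of the runs of an arm. The level of the scores differed more. The median member score was 94.1 on 3R, 74.8 on 2R, 68.3 on 3L and 66.0 on 2L, against 78.4, 74.6, 60.9 and 56.4 for narrow peaks of the same arms without a close neighbour. On 2R the member and non-member medians were therefore nearly equal, and members were narrower there, at 957 against 1051 bp. Pairs in which each partner reached 100 were 30.3% of the pairs on 3R (25.7 to 35.2), 20.6% on 2R, 20.4% on 3L and 13.2% on 2L (9.74 to 17.4).

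Along the arms the share of narrow peaks with a close neighbour varied from place to place. Over the 94 bins of 1 Mb with at least 20 narrow peaks it had a median of 52.3% and quartiles of 43.9% and 59.9%. The lowest share was 8 of 37 peaks, 21.6% (9.83 to 38.2), at 9 to 10 Mb of 3R, and the highest was 17 of 21, 81.0% (58.1 to 94.6), at 24 to 25 Mb of 3L. The next highest was 27 of 36, 75.0%, at 22 to 23 Mb of 3L, while the bin between them, 23 to 24 Mb, had 9 of 32, 28.1%. The share and the number of narrow peaks in a bin, which lie on the same map, had a rho of 0.241 (n = 94).

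The same rule was applied to the X chromosome for comparison. It kept 361 of 1076 narrow X peaks, 33.6% (30.7 to 36.5), against 52.1% on the autosomal arms. X members had a median score of 28.6, near the 27.7 of narrow X peaks without a close neighbour, and a median width of 650 bp. Balance between X partners was near that of the autosomes, with a median score ratio of 1.61 (1.44 to 1.79) over 180 pairs, a width ratio of 1.46 and the higher score in the wider partner in 76.0% (69.0 to 82.0). The upper end was not alike. Scores at least 5 times apart were found in 11 X pairs, 6.11% (3.09 to 10.7), against 17.7% of autosomal pairs. X scores are lower, and the median score of the stronger partner was 36.6 there, where it was 102 in autosomal pairs. Pairs in which each partner reached 100 numbered 14, 7.78% (4.32 to 12.7), against 284 autosomal pairs, 21.5%. A score of at least 100 was also rarer in single members, at 16.3% on X against 38.4% on the autosomal arms. Among narrow peaks without a close neighbour it was rarer on X too, at 10.9% (8.72 to 13.4) against 31.9% (30.1 to 33.8). The lower share on X was thus not particular to members.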

How the data were processed

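The data were 1 list of peaks from 2 immunoprecipitated and 2 input libraries, which were grouped by their titles. Per the file headers, peaks came from MACS and lie on FlyBase release 5. The submitters' processing notes list MACS2, BWA, the build BDGP5 and CASAVA (1.7.0.2 and 1.7.0.3), with no order given. The authors deposited 1 score per peak. Not given in the sources used here are its kind, the calling threshold, the input used and any pooling of replicates, so score ratios are ratios on the authors' scale and not of histone marks. Scores are shared by many peaks, with 1283 distinct values among the 2658 members.

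The lowest deposited start was 0, so starts were counted from 0 and are printed counted from 1. Width is end minus deposited start, and gap is the next start minus the end before it. Members, runs and pairs were built with pandas 2.3.3, numpy 2.4.6 and scipy 1.17.1 under Python 3.11.15, figures were drawn in matplotlib 3.10.9, and the code was tested on simulated data. No test was run, since the members were chosen from this list and it holds no replicate. Members, lists and limits were chosen with earlier results of these data known. Named by rule were, on each arm, the longest run and the pairs with the highest weaker score, the smallest gap (ties by the higher sum of scores) and the largest score ratio, and over the arms the pairs nearest the gap limit, of which the nearest on each side is printed. The 9-peak run and the bins named were chosen after their values were seen. Alternatives were gap limits of 250 and 1000 bp, no width limit, only peaks at or above the list's median score, and only runs of exactly 2 narrow peaks.

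The gene table at hand is of release 6, so no coordinates, sequences or gene names were taken from it.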

Additional observations from a re-analysis of the deposited data

Results flagged for a closer look

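Peaks on other sequences also met the rule, and no comparison above uses them. On the Het (heterochromatin), U and Uextra (unplaced) sequences 889 of 4353 narrow peaks had a close neighbour, 20.4% (19.2 to 21.7), and on chromosome 4 these were 19 of 59, 32.2% (20.6 to 45.6). They are given here because they lie outside the arms described above.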

How the results depend on the processing

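With a gap limit of 250 bp there were 1456 members, 28.5% of narrow peaks, with a median gap of 152 bp, 82.7% of runs holding 2 peaks, score and width ratios of 1.73 and 1.56, the higher score in the wider partner in 77.6%, member medians of 67.1 for score and 928 bp for width, and a median score of 71.4 for the others. The order of the member and non-member median scores thus turned around under this limit (67.1 against 71.4), though their intervals overlapped (60.3 to 73.6 and 68.9 to 74.2). With 1000 bp the share was 66.9%, the median gap 318 bp and runs of 2 were 66.3%. With no width limit the width ratio was 1.72, and members had medians of 89.05 for score and 1114 bp for width, against a score of 78.9 for the others. With only peaks at or above the median score of the list, a filter on the score itself, there were 1224 members, 41.9%, with a median gap of 263 bp, 84.1% runs of 2, score and width ratios of 1.28 and 1.25, the higher score in the wider partner in 60.8% and in the left in 52.7%, member medians of 125 and 1257 bp, and a score of 106 for the others. In runs of exactly 2 narrow peaks the score ratio was 1.54 and the width ratio 1.39. The cause of these shifts was not tested beyond what each limit fixes by its construction. The other 18 values stayed within the interval of the main value or, for a number of members, within 1.5 times of it. No paired analysis was possible because single libraries have no values here, which also kept replicates from being left out in turn. Unknown depth limits what can be said of weak partners, since still weaker peaks were never called.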
